A study of Mus musculus with 27 samples.

Results

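Pancreatic beta cells keep a small group of widely expressed genes unusually low, and these are known as disallowed genes. This account follows 10 genes chosen by name from that group: Ldha, Slc16a1, Hk1, Hk2, Oat, Acot7, Pdgfra, Cxcl12, Smad3 and Lmo4. Each had 1 row in each of the 3 deposited count tables, which hold 26487 rows for islets, 55536 for embryonic pancreas and 39017 for neural progenitors. The 10 were listed as genes normally silenced in mature beta cells. The question was which of them rise when the transcription factor Nkx2.2 is mutated or removed in islets. Ldha was the only gene of the 10 that edgeR, the main test, called higher in an islet comparison. That was in betaSDmut islets, where 4.07% of all genes were called higher. Acot7 in 4-week islets passed the threshold with DESeq2 and in 1 other fit. The authors' deposited table of both islet mutants calls Acot7 and Oat for betaKO against control. Its log2 fold changes add up only if both mutants were set against the same control, so age was not matched for both.

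In a beta cell, glucose taken up through Slc2a2 is phosphorylated by glucokinase, a hexokinase of low affinity, and its carbon is passed to the mitochondria, so that ATP follows blood glucose. Hexokinases of high affinity (Hk1, Hk2) would remove that glucose sensing, lactate dehydrogenase A (Ldha) would divert pyruvate to lactate, and the monocarboxylate transporter Slc16a1 (MCT1) would let circulating pyruvate or lactate trigger insulin release. Nkx2.2 is a homeodomain factor that activates and represses genes in beta cells and in the ventral spinal cord, and its SD domain is a conserved stretch outside the homeodomain.

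RNA was sequenced in 24 libraries. Whole pancreata at E15.5, a day of gestation at which endocrine cells form, came from 3 wildtype control samples and 4 samples carrying Nkx2.2SDmut, the SD-domain mutant form of the gene. Islets at 8 weeks came from 2 wildtype control samples and 3 with the SD mutation in beta cells (betaSDmut), and islets at 4 weeks came from 2 controls, whose genotype is not given in the sources used here, and 2 samples labelled betaKO, that is with Nkx2.2 removed in beta cells. The driver of the beta-cell recombination, the strain and the sex are not given there either. The third system was motor neuron progenitors at day 4 of differentiation from mouse embryonic stem cells, all carrying a doxycycline-inducible, FLAG-tagged transgene: 3 libraries of the iNkx2.2 line (wildtype transgene) without doxycycline, called pMN, 3 of the same line induced with 1 µg/ml for about 16 h, called iNkx2.2, and 2 of a separate line with the mutant transgene, induced likewise, called iSDmut. No uninduced iSDmut library was analysed, so line and transgene cannot be told apart. Every induced library had doxycycline and no pMN library did, so drug and transgene cannot be told apart in comparisons with pMN. Binding of Nkx2.2 was measured by chromatin immunoprecipitation sequencing (ChIP-seq) in 2 replicates of MIN6, a mouse insulinoma line that serves as a beta-cell model. The labels do not say whether libraries of a group came from separate animals or cultures, and p-values measure only the spread between these libraries.

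Total counts per library were 38447596 to 41840638 in embryonic pancreas, 12398041 to 32385406 in islets and 17757991 to 46840701 in progenitors. Differences are log2 fold changes ± their standard error. The Nkx2-2 transcript, the check of the labels, was at 103 and 76.2 CPM (counts scaled to 1000000 per library, with TMM factors) in 4-week controls and at 92.8 and 64.5 CPM in the libraries labelled betaKO, so the 2 groups overlapped (-0.18 ± 0.237 on the log2 scale, edgeR adjusted p 0.779), and every direction for those libraries rests on their labels. The SD mutation leaves the transcript in place, and Nkx2-2 had log2 fold changes of -0.10 in both mutant pancreas and betaSDmut islets. In progenitors Nkx2-2 rose with induction, by 5.25 in iNkx2.2 and 4.72 in iSDmut (log2). The islet libraries matched their tissue: 8 beta-cell markers (insulins, Iapp, Mafa, Pdx1 and others) summed to between 165000 and 239000 CPM, and none was at 0. Embryonic control 3 and mutant 2 stood apart with 4850 and 5570 CPM of 7 skeletal muscle markers, against at most 66.3 CPM in the other embryonic libraries.

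Nkx2.2 had bound sites near several of the 10 genes, and those next to Ldha and Acot7 were the strongest. The deposited ChIP-seq events, single positions called by the GEM peak finder, numbered 10749, of which the authors' final set keeps 6473. An event lay within 100 kb of the annotated start of 6 of the 10 genes, against 48.6% of 21951 protein-coding genes, so as a group these genes were not far from that background. A final site lay within 10 kb of the start of 2 of them, Ldha and Acot7, against 7.27% of protein-coding genes. No event was found within that 100 kb for Pdgfra, Cxcl12, Oat or Lmo4.

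The event at Ldha (chromosome 7, 46835483, GRCm38) was upstream of the gene, 5992 bp before its start, outside any gene. It held 347 and 288 reads in 500 bp in replicates 1 and 2, which placed it at rank 263 of all events, and the authors' deposited table joins it to Ldha with an average log2 CPM of 8.87. The event at Acot7 (chromosome 4, 152168242) was 9892 bp upstream, held 244 and 186 reads and ranked 602, and its nearest start is that of another gene, Hes2, at 9375 bp. Smad3 had a final site 34034 bp upstream (138 and 130 reads), Slc16a1 had one 51793 bp downstream of its start and beyond its end (140 and 120 reads), and Hk1 had final sites in introns at 68160 bp (127 and 99 reads) and 35630 bp (78 and 68 reads) from its start. The remaining events fell outside the final set, among them the only event near Hk2, with 35 and 19 reads.

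**Figure D1:**
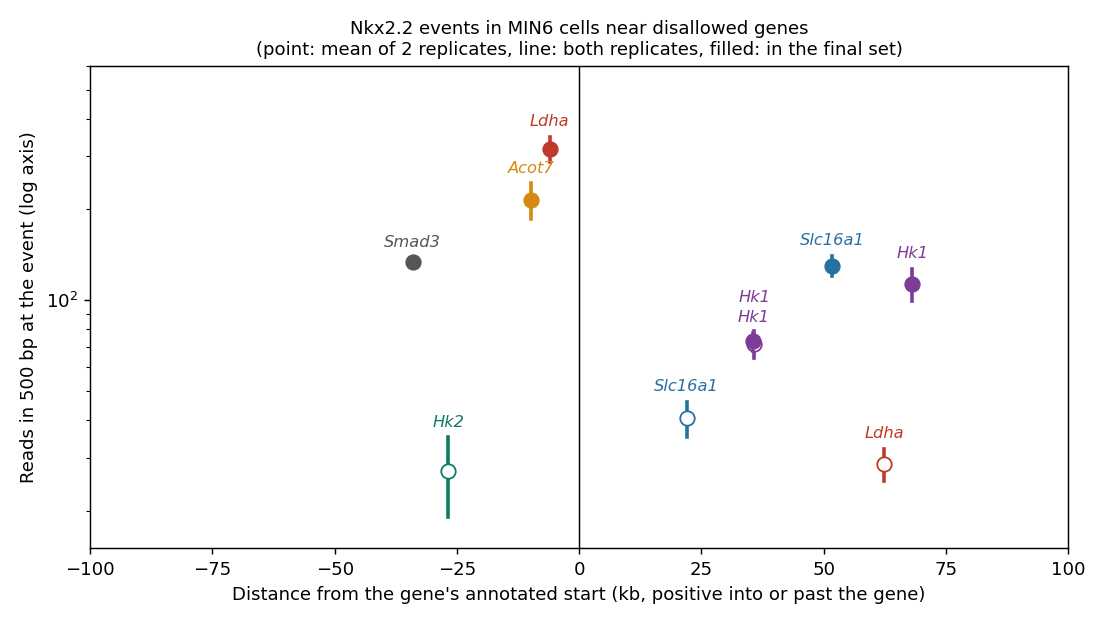
Reads in 500 bp at each Nkx2.2 event in MIN6 cells (log axis) against its distance from the annotated start of the gene in kb, with the mean of 2 replicates as a point, both replicates as the ends of the line, and filled points for the authors' final set. The events of Ldha (347 and 288 reads) and Acot7 (244 and 186 reads) lie highest and closest to a start.

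The 201 bases centred on each of the 6 final sites are shown because they are the stretches where binding near these genes was measured; all are the plus strand of GRCm38, read from the RefSeq copy of that assembly. They span chr7:46835383-46835583 for Ldha, chr4:152168142-152168342 for Acot7, chr3:104690361-104690561 for Slc16a1, chr9:63791928-63792128 for Smad3, and chr10:62311648-62311848 and chr10:62344178-62344378 for Hk1. Capitals mark every match, on either strand, to CACTC and to its neighbour in sequence CACTT, letters of the kind that Nkx2 homeodomains bind, and to GTTGC, the repeated unit of the motif known for RFX factors. These 3 were chosen after counting short words around all events.
Ldha: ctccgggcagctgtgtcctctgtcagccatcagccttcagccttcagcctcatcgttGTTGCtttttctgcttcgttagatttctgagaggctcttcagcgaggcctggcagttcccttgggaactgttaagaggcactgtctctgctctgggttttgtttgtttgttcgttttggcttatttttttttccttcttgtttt
Acot7: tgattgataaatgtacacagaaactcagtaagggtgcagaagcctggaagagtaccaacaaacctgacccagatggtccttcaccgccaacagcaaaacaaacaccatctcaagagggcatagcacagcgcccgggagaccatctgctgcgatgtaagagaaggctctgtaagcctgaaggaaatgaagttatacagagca
Slc16a1: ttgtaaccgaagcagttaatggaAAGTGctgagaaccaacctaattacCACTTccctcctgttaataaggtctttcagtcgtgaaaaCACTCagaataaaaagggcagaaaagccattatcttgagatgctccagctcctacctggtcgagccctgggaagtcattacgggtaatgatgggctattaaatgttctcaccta
Smad3: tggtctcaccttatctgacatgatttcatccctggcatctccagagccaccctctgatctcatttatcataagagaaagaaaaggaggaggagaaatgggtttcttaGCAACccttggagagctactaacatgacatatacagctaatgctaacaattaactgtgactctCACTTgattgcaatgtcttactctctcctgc
Hk1, the site nearer the end of the gene: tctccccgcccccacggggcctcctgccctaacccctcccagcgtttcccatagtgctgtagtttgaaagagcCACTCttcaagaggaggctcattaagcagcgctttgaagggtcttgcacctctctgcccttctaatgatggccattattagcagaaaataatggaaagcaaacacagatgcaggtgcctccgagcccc
Hk1, the site nearer the start: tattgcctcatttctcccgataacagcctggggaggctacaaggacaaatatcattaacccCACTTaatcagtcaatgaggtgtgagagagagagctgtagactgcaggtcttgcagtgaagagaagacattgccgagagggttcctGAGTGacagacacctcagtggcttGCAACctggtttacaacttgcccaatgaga

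The Ldha window holds GTTGC alone, 41 bp from the event, and the Acot7 window holds none of the 3. The Slc16a1 window has CACTC at 11 bp and CACTT at 50 and 75 bp, the Smad3 window has GTTGC on the minus strand at 9 bp and CACTT at 72 bp, and the Hk1 windows have CACTC at 25 bp, and, in the site nearer the start, CACTT at 37 bp, CACTC at 49 bp and GTTGC at 73 bp. Over all 6473 final-site windows of this length, 55.2% hold CACTC, 40.7% CACTT and 47.2% GTTGC. Windows 2 kb away from the 10749 events hold them in 32.3%, 39.4% and 21.6%.

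In 8-week control islets the order of the 10 genes per transcript length was led by Oat. In FPKM as deposited, a level corrected for transcript length and library depth, Oat (ornithine aminotransferase, a mitochondrial enzyme) stood at 9.38 ± 1.15 (SD, n = 2) in 8-week controls, Ldha at 5.81 ± 0.778, Acot7 at 4.97 ± 2.16, Lmo4 at 4.42 ± 1.52, Hk1 at 4.11 ± 0.725 and Cxcl12 at 3.79 ± 0.826. From Ldha down to Cxcl12 neighbours lay within their spread. Smad3 was next at 1.67 ± 0.0915, and Slc16a1, Pdgfra and Hk2 had means of at most 0.334. In 4-week controls Oat (12.3 ± 1.73 FPKM, SD, n = 2) and Cxcl12 (11.2 ± 9.31) came first, within their spread, with Cxcl12 above Oat in control 1 (17.8 against 13.5 FPKM) and below it in control 2 (4.62 against 11.1). The order again ended with Slc16a1, Pdgfra and Hk2. In progenitors and in embryonic pancreas, by contrast, Ldha was the first of the 10 per length in each group, at 443 ± 129 FPKM in pMN (SD, n = 3). The tables were normalised separately, and levels in different tables are set side by side without a test.

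In 8-week islets with the SD mutation in beta cells, Ldha rose and the other 9 genes were not called. Ldha was at 9.44 and 11.7 CPM in the controls and at 157, 201 and 208 CPM in betaSDmut islets. All 3 mutant libraries lay far above both controls, a 17.7-fold difference (log2 fold change 4.15 ± 0.19, edgeR adjusted p 0.000868), which ranked 11 by p among 15413 genes tested. That is 1 of 10 genes called, against 7.94% of all genes called and 4.07% called higher. The call held in each of 12 alternative analyses, with a log2 fold change of 4.00 to 4.32 (edgeR or DESeq2 adjusted p 5.43e-113 to 0.0368). The authors' deposited table of this comparison gives Ldha a log2 fold change of 4.13 and a call. Per length, Ldha moved from 16.7% of the summed FPKM of the 10 genes in controls to 75.7% in betaSDmut islets, and it became the first of them in order.

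Ldha codes for the M subunit of lactate dehydrogenase and Ldhb for the H subunit, and the 2 genes moved in opposite directions. Ldhb was at 9.92 and 11.8 CPM in controls and 6.74, 6.11 and 4.78 CPM in betaSDmut islets, a fall of 0.90 on the log2 scale (SE 0.179, edgeR adjusted p 0.0391). In deposited FPKM the ratio of Ldha to Ldhb was 0.461 and 0.443 in controls and 11.1, 17.2 and 23.7 in the mutants. Near copies can share reads with Ldha: the pseudogenes Ldha-ps and Ldha-ps2 had at most 43 counts in embryonic pancreas and 18 in progenitors, and the islet table has no row for them. Over the 9 islet libraries, the genes whose log2 CPM followed Ldha most closely were Elmo1 (Pearson r 0.988) and Fsip1 (r 0.983) of 15994 genes, a description of libraries that share depth and group. Elmo1, which regulates cell migration and engulfment, was at 14.9 and 16.2 CPM in 8-week controls and 31.2 to 33.9 CPM in betaSDmut islets, while Fsip1 was under 1 CPM in every islet library.

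**Figure D2:**
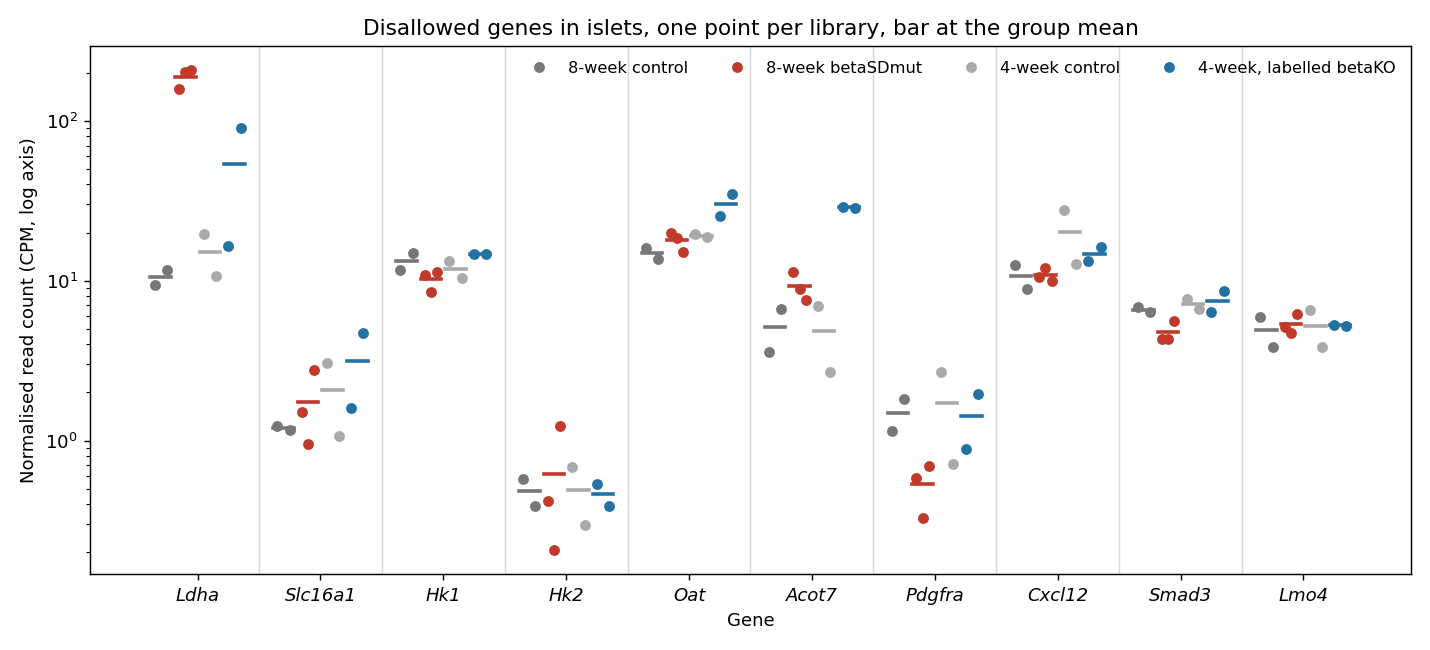
Normalised read count (CPM, log axis) of each gene in the 9 islet libraries, 1 point per library with a bar at the group mean, for 8-week control, 8-week betaSDmut, 4-week control and 4-week libraries labelled betaKO. Ldha in betaSDmut islets (157 to 208 CPM) stands apart from both controls (9.44 and 11.7 CPM), and Acot7 stands at 28.9 and 28.6 CPM in the libraries labelled betaKO.

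The transporter and the hexokinases did not follow Ldha. Slc16a1 was at 1.24 and 1.17 CPM in 8-week controls and 1.5, 0.949 and 2.75 CPM in betaSDmut islets, groups that overlap (log2 fold change 0.53 ± 0.492, edgeR adjusted p 0.54). Hk2 was at 0.572 and 0.390 CPM in controls and 0.416, 0.206 and 1.23 CPM in mutants, again with overlap and with only 5 to 34 counts per mutant library. BetaSDmut 3, the highest library for both genes, also had 118 CPM of 7 immune markers and 5220 CPM of 10 acinar markers, against 26.0 to 26.7 and 458 to 1080 CPM in the other betaSDmut libraries (at most 1 of 7 immune and 0 of 10 acinar markers at 0 in any of the 3). Both controls, with low Slc16a1 and Hk2, had 50.5 to 51.8 CPM of the immune and 3870 to 6480 CPM of the acinar markers; the part of those cells in the result was not tested. Hk1 was lower in 3 of 3 mutants than in both controls (11.6 and 14.8 CPM against 10.8, 8.46 and 11.4), with a log2 fold change of -0.37 ± 0.18 (edgeR adjusted p 0.259).

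Acot7, an acyl-CoA thioesterase best known from neurons, was at 3.58 and 6.67 CPM in controls and 11.4, 8.87 and 7.60 CPM in betaSDmut islets. The groups did not overlap, but the difference was not called (log2 fold change 0.85 ± 0.312, edgeR adjusted p 0.16). Oat was at 16.1 and 13.7 CPM against 20, 18.6 and 15.2 CPM, within overlapping ranges. Groups did not overlap for 2 genes that were higher, Ldha and Acot7, against 23% of all genes, and for 3 that were lower, Hk1, Pdgfra and Smad3, against 22.7%. Apart from Ldha these shares are near the background.

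The signalling genes had no member called at 8 weeks. Pdgfra, a growth factor receptor of mesenchymal and young beta cells, was at 1.14 and 1.82 CPM in controls and 0.583, 0.330 and 0.688 CPM in betaSDmut islets (log2 fold change -1.46 ± 0.42, edgeR adjusted p 0.0936). The summed level of 8 mesenchymal markers, with none at 0, was 222 and 288 CPM in controls and 180, 166 and 120 CPM in mutants, with 0 of the 8 called by edgeR and a median log2 fold change of -0.79; its part in the Pdgfra values was not tested, and in bulk islets fewer cells of a type and less RNA per cell cannot be told apart. Smad3, a mediator of TGF-beta signals, was at 6.82 and 6.37 CPM against 4.33, 4.29 and 5.61 CPM (log2 fold change -0.48 ± 0.186, edgeR adjusted p 0.179). The chemokine Cxcl12 had a log2 fold change of 0.01 (95% interval -0.42 to 0.44), and Lmo4, a LIM-only cofactor of transcription, of 0.13 (-0.48 to 0.73).

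**Figure D3:**
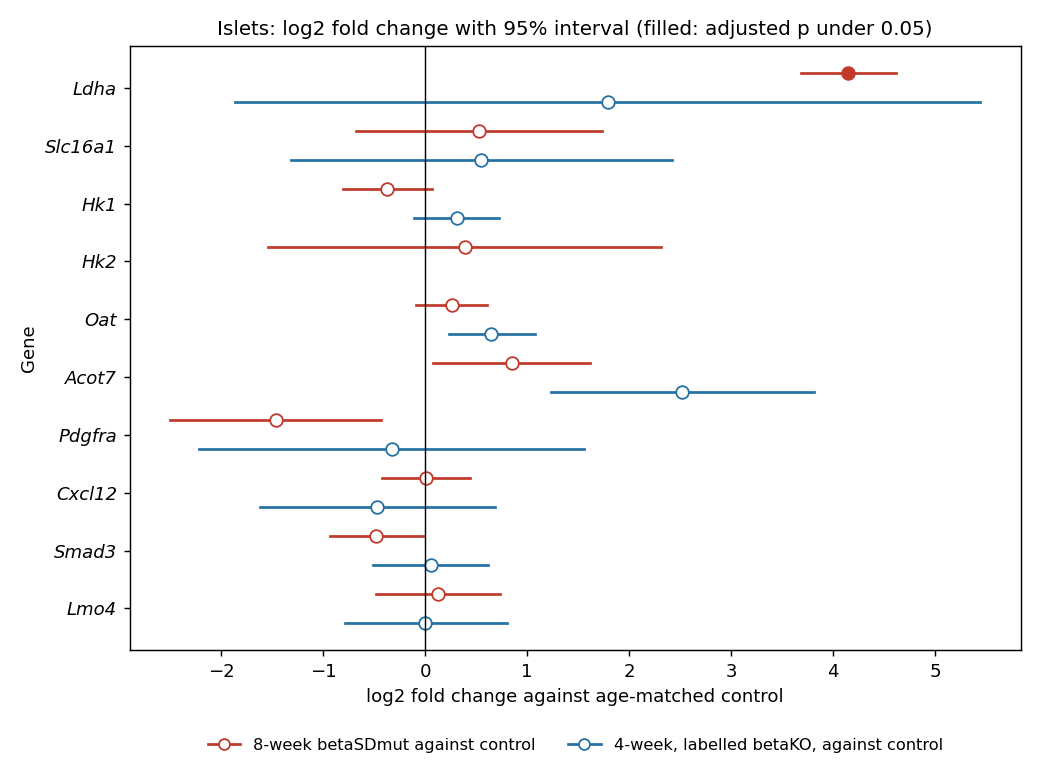
Log2 fold change of each gene with its 95% interval in 8-week betaSDmut islets and in 4-week libraries labelled betaKO, each against controls of the same age, with filled points where the edgeR adjusted p was under 0.05. Ldha at 4.15 in betaSDmut islets is the filled point; Hk2 has no value at 4 weeks because it did not pass the count filter.

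Genes of the same pathways, taken from fixed lists that exclude the 10, moved in a few places. Over all 15413 genes tested at 8 weeks, 3958 had an unadjusted p under 0.05, which is the background for the unadjusted count of each list. No share over all genes is given for DESeq2 at 8 weeks. Of 18 genes of glycolysis and glucose entry tested, edgeR called 0 higher and 1 lower (8 had an unadjusted p under 0.05, and DESeq2 called 6). The glucose transporter Slc2a2 was at 932 and 937 CPM in controls and 556, 537 and 423 CPM in betaSDmut islets (log2 fold change -0.89 ± 0.129, edgeR adjusted p 0.0163). Of 16 genes that handle lactate, pyruvate and monocarboxylates, edgeR called 0 higher and 2 lower (7 had an unadjusted p under 0.05, and DESeq2 called 4), Ldhb and pyruvate carboxylase Pcx (172 and 186 CPM against 92.0, 70.1 and 59.3; log2 fold change -1.28, edgeR adjusted p 0.0171). In the ornithine and proline list, whose enzymes neighbour Oat, arginase Arg1 rose (log2 fold change 1.85, edgeR adjusted p 0.0271), from 36.4 and 22 CPM in controls to 77.4, 124 and 114 CPM, and so did Pycr1, which forms proline (1.23, 0.0149).

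Around Smad3, the TGF-beta receptor Tgfbr1 fell (log2 fold change -0.48, edgeR adjusted p 0.0468) and the co-receptor Tgfbr3 rose (1.23, 0.0101), 2 of 15 genes tested. Among LIM-only genes and partners, Isl1, a LIM-homeodomain factor of islet cells, rose from 106 and 104 CPM to 227, 200 and 196 CPM (log2 fold change 0.98 ± 0.09, edgeR adjusted p 0.00504), 1 of 7 tested. No gene was called among 7 of PDGF and CXCL12 signalling (edgeR; 2 had an unadjusted p under 0.05, and DESeq2 called 0) or 9 acyl-CoA thioesterases (2 and 0). Of 9 other disallowed genes, among them Maf, Igfbp4, Zfp36l1, Tgm2 and Yap1, edgeR called 0, 3 had an unadjusted p under 0.05 and DESeq2 called 1; their median log2 fold change was 0.08.

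In 4-week islets labelled betaKO none of the 9 genes tested was called by edgeR, and Acot7 had the largest value. That test called 1.56% of 14942 genes. Of the 9, 2 had an unadjusted p under 0.05, Acot7 and Oat, as did 2275 of the 14942 genes. DESeq2 called 1 of the 9, Acot7, and 770 genes in all. Acot7 was at 6.95 and 2.68 CPM in controls and 28.9 and 28.6 CPM in the libraries labelled betaKO, which agree closely and lie above both controls. Its log2 fold change was 2.52 ± 0.465 (edgeR adjusted p 0.125; over 11 alternatives 2.04 to 3.42, with adjusted p 1.07e-07 to 0.344). It passed the threshold with DESeq2 (2.56, adjusted p 1.07e-07) and in an edgeR fit of all 9 islet libraries (2.53, adjusted p 0.0302). The authors' deposited table of both islet mutants also calls Acot7, at 2.49, but against a control shared by both mutants.

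Oat was at 19.5 and 18.7 CPM in controls and 25.5 and 34.7 CPM in those labelled betaKO (log2 fold change 0.65 ± 0.17, edgeR adjusted p 0.161). Without betaKO 1, which leaves 1 library in that group, its value was 0.86. The authors' deposited table of both islet mutants calls Oat, at 0.82, again against the shared control. Ldha was at 19.7 and 10.7 CPM in controls and at 16.4 and 90.5 CPM in the libraries labelled betaKO: one lay between the controls and the other far above them. The log2 fold change was 1.79 with a 95% interval of -1.86 to 5.44 (edgeR adjusted p 0.569), and without betaKO 2 it was 0.09. The 10 acinar markers summed to 5420 and 2930 CPM in controls and to 20800 and 6850 CPM in betaKO 1 and 2, with none of the 10 at 0. The 8 mesenchymal markers summed to 248 and 238 CPM in controls and 365 and 458 CPM in the libraries labelled betaKO, with 0 at 0 and 2 of the 8 called higher. Markers of other endocrine cells were higher in both libraries labelled betaKO: 5 alpha-cell markers summed to 29200 and 25000 CPM in controls and 62400 and 50600 CPM there (1 called higher), and 3 delta- and PP-cell markers to 5900 and 4530 against 13900 and 10900 CPM (1 called higher), with 0 at 0. The part of these cells in the Acot7, Oat and Ldha values was not tested.

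Of the remaining genes, Hk1 was higher in both libraries labelled betaKO than in both controls (13.2 and 10.4 CPM against 14.6 and 14.7), with a log2 fold change of 0.31 ± 0.166 (edgeR adjusted p 0.458). Groups did not overlap for 3 genes that were higher, Acot7, Oat and Hk1, against 23.2% of all genes, and for 0 that were lower, against 24.3%. Slc16a1 was at 3.06 and 1.07 CPM against 1.60 and 4.68 CPM, and Hk2 was under 1 CPM in all 4 libraries. Pdgfra, Cxcl12, Smad3 and Lmo4 had log2 fold changes between -0.47 and 0.06 and overlapping groups. From the pathway lists, Pcx fell here as well (183 and 176 CPM against 87.2 and 90.9, log2 fold change -1.01, edgeR adjusted p 0.0224). Arg1 rose (19.7 and 22.7 CPM against 71.9 and 74.2, 1.79, edgeR adjusted p 0.0147), as at 8 weeks. Pdk4, a kinase that shuts pyruvate dehydrogenase, rose (36.6 and 38.9 CPM against 74.6 and 82.0, 1.05, edgeR adjusted p 0.0241). At 8 weeks Pdk4 was lower in betaSDmut islets (23.5, 18 and 29 CPM) than in controls (36.3 and 42.8 CPM). Slc2a2, Ldhb and Isl1 also moved as at 8 weeks and Tgfbr3 moved the other way, each without overlap, and edgeR called none of these at 4 weeks. Of the 9 other disallowed genes edgeR and DESeq2 called 0, and 1 had an unadjusted p under 0.05.

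The effects of the SD mutation and of the knockout label differed in size for Ldha and Acot7, but the test of the difference called none of the 10 genes. That test compares each mutant with controls of its own age, and it called 1.21% of 15995 genes. The difference (betaSDmut effect minus betaKO effect) was 2.37 for Ldha (SE 1.02, 95% interval -0.12 to 4.86, edgeR adjusted p 0.385) and -1.67 for Acot7 (SE 0.584, -3.03 to -0.31, adjusted p 0.27). For Hk1 it was -0.67 (SE 0.257, adjusted p 0.3), with effects of opposite sign. Acot7 and Hk1 had an unadjusted p under 0.05, as did 2195 of the 15995 genes. DESeq2 called 0 of the 10 genes and 649 genes in all. Without betaKO 2, which leaves 1 library in that group, assumed to vary like the other groups, the difference for Ldha was 4.07 (edgeR adjusted p 0.0381). The authors' deposited table, which contrasts betaKO with betaSDmut directly, calls Ldha (-2.33), Acot7 (1.69) and Oat (0.76). Genotype and age cannot be told apart in that direct contrast, since each mutant was sampled at a single age. The difference of effects has this limit too. Its controls are matched in age, but the kind of mutation still changes together with age and with the protocol used at each age.

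In E15.5 whole pancreas none of the 10 genes was called by edgeR. The test called 0.00534% of 18723 genes. Of the 10 genes 0 had an unadjusted p under 0.05 and DESeq2 called 0, against 475 and 25 of all genes. Ldha was at 690, 576 and 573 CPM in controls and 813, 638, 749 and 707 CPM in mutants, with 3 of 4 mutants above each control (log2 fold change 0.25, 95% interval -0.03 to 0.53). Hk2, at 61.6 to 65.6 CPM in controls and 62.0 to 69.6 CPM in mutants, had the narrowest interval (-0.13 to 0.22). Acot7 had a log2 fold change of 0.30, Oat of 0.32 and Slc16a1 of 0.22, each within overlapping groups. Oat was at 170 CPM in mutant 2, a library with high muscle markers, and at 97.8, 82.7 and 81.3 CPM in mutants 1, 3 and 4. Controls had 79.8 to 94.7 CPM, with 94.7 CPM in control 3, the other library with high muscle markers. Over 14 alternatives the Oat value was 0.01 to 0.43. The part of muscle in it was not tested. Groups overlapped for all 10 genes, where 1.61% of all genes were higher and 1.97% lower without overlap.

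Pdgfra, Cxcl12 and Hk1 varied more between libraries than between groups. Pdgfra was at 61.1, 112 and 133 CPM in controls 1 to 3 and at 92.0, 129, 56.3 and 60.9 CPM in mutants 1 to 4. The 8 mesenchymal markers summed to 6320, 12200 and 14400 CPM in those controls and to 9960, 15000, 5360 and 6690 CPM in those mutants, so libraries high in one were high in the other; that relation was not tested. Cxcl12 ranged from 158 to 316 CPM in controls and 183 to 342 CPM in mutants, and Hk1 from 29.0 to 68.3 and 27.2 to 82.0 CPM. Smad3 (log2 fold change -0.02) and Lmo4 (0.07) lay close to 0. An antisense gene, Hk1os, overlaps Hk1 and had 10 to 20 counts here; strand use in counting is not stated, and reads of such pairs cannot be told apart.

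In motor neuron progenitors, fitted without pairing, Cxcl12 was called higher and Hk2 lower after induction of the wildtype and of the mutant transgene. With the replicate number as a block over all 8 progenitor libraries, iSDmut included, Hk2 kept its call in iNkx2.2 and Cxcl12 did not (edgeR adjusted p 0.0401 and 0.084). Cxcl12 was at 11.2, 7.70 and 9.35 CPM in pMN, 27.6, 18.1 and 28.3 CPM in iNkx2.2 and 18.6 and 43.2 CPM in iSDmut. Every induced library lay above every pMN library, with log2 fold changes of 1.39 ± 0.304 (edgeR adjusted p 0.023) and 1.72 ± 0.33 (edgeR adjusted p 0.0258). Hk2 was at 120, 98 and 105 CPM in pMN, 56.5, 85.5 and 53.0 CPM in iNkx2.2 and 60.3 and 54.2 CPM in iSDmut, and it fell by 0.73 ± 0.174 (edgeR adjusted p 0.032) and 0.91 ± 0.2 (edgeR adjusted p 0.0417) on the log2 scale. That is 2 of 10 genes in each comparison, against 9.49% of 15653 genes for iNkx2.2 (4.71% higher, 4.78% lower) and 3.54% for iSDmut (1.9% higher, 1.64% lower). Both comparisons use the same pMN libraries, which had no doxycycline, so the drug and the transgene cannot be told apart in either. The authors' deposited table of progenitors lists Hk2 as the only one of the 10, called at -0.73 and -0.91.

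These calls lay close to the threshold. For iNkx2.2, leaving out any of pMN 1, 2 or 3 or iNkx2.2 1 or 3 ended both calls, with edgeR adjusted p of 0.059 to 0.145 for Hk2 and 0.0593 to 0.0928 for Cxcl12, while their log2 fold changes kept between -0.97 and -0.59 and between 1.27 and 1.57 over 16 alternatives. Within sequencing lane 2, Hk2 was at -0.60 (edgeR adjusted p 0.152) and Cxcl12 at 1.30 (0.0478). The replicate numbers pair pMN with iNkx2.2 libraries. A block by that number was fitted over all 8 progenitor libraries, so iSDmut 1 and 2 were placed in blocks 1 and 2. With it 4 genes were called: Hk2 (-0.75, edgeR adjusted p 0.0401), Slc16a1 (-0.42, 0.0317), Smad3 (-0.25, 0.0141) and Hk1 (0.29, 0.0348). Cxcl12 was not called (1.39, edgeR adjusted p 0.084). That block raised the calls over all genes from 1486 to 4629. DESeq2 called 3 genes, Hk2, Cxcl12 and Slc16a1 (-0.42, DESeq2 adjusted p 0.0284). For iSDmut, DESeq2 called 4, Hk2, Cxcl12, Slc16a1 (-0.49, DESeq2 adjusted p 0.0322) and Smad3 (-0.47, 0.0198). Hk2 kept its call in 8 and Cxcl12 in 7 of 16 alternatives; without iSDmut 2, the library with 43.2 CPM, Cxcl12 was at 0.98 (edgeR adjusted p 0.12), and within lane 2 it was at 1.00 (0.191) and Hk2 at -0.84 (0.198). Leaving out iSDmut 1 or 2, pMN 1, 2 or 3, or iNkx2.2 1 ended the Hk2 call (edgeR adjusted p 0.0674 to 0.152), and leaving out any of those pMN libraries ended the Cxcl12 call (0.0697 to 0.0812).

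**Figure D4:**
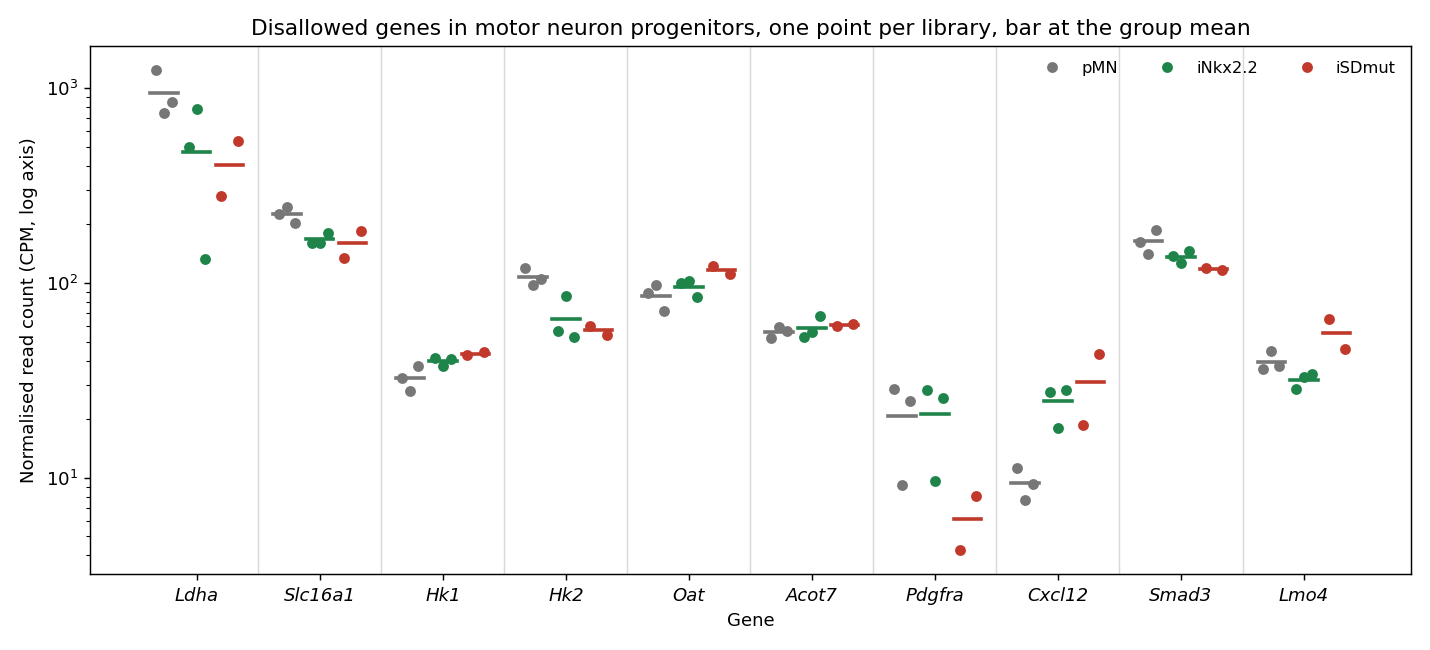
Normalised read count (CPM, log axis) of each gene in the 8 progenitor libraries, 1 point per library with a bar at the group mean, for pMN, iNkx2.2 and iSDmut. Cxcl12 in every induced library (18.1 to 43.2 CPM) lies above pMN (7.70 to 11.2 CPM), and Hk2 lies below it.

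Other metabolic members moved less or varied more. Slc16a1 was at 227, 246 and 202 CPM in pMN, 161, 161 and 181 CPM in iNkx2.2 and 134 and 185 CPM in iSDmut, below pMN in every induced library (log2 fold changes -0.43 and -0.50, edgeR adjusted p 0.0737 and 0.103), and passed the threshold in 6 and 4 of 16 alternatives. Ldha was at 1240, 742 and 853 CPM in pMN, 497, 781 and 133 CPM in iNkx2.2 and 278 and 533 CPM in iSDmut; its spread within iNkx2.2 was wide, and log2 fold changes of -1.01 and -1.22 were not called (edgeR adjusted p 0.268 and 0.299). Hk1 (0.28 and 0.41), Oat (0.15 and 0.44) and Acot7 (0.08 and 0.12) had positive values that edgeR did not call without a block. Groups did not overlap for 2 genes that were higher in iNkx2.2 than in pMN and 3 that were lower, against 16% and 15.4% of all genes. In iSDmut, with 2 libraries, all 10 genes were without overlap, 5 higher and 5 lower, against 17.2% and 19.2% of all genes. In the list of glycolysis and glucose entry the median log2 fold change of 18 genes was -0.45 in iNkx2.2 and -0.46 in iSDmut, against -0.01 over all genes in each. The glucose transporter Slc2a1, named after its values were seen, was called lower in both (-1.41 and -1.18, edgeR adjusted p 0.00687 and 0.0432), and the enolase Eno2 was called higher in iNkx2.2 (1.07, 0.0349).

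Around Cxcl12, both of its receptors fell in iNkx2.2, the signalling receptor Cxcr4 (log2 fold change -1.01, edgeR adjusted p 0.0184) and the scavenging receptor Ackr3 (-1.88, 0.0131), and Pdgfrb rose (1.25, 0.0327), 3 of 7 genes of that list; these too were named after their values were seen. In iSDmut edgeR called 0 of the 7, 3 had an unadjusted p under 0.05 and DESeq2 called 1. Mesenchymal markers summed to 30.4 to 79.8 CPM in pMN, 58.9 to 179 CPM in iNkx2.2 and 19.5 and 130 CPM in iSDmut, with at most 1 of the 8 at 0 and 2 of 6 tested called higher in iNkx2.2; their part in the Cxcl12 values was not tested.

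Wildtype and mutant transgenes were then compared directly, and none of the 10 genes was called by edgeR, against 0.281% of all genes. Lmo4 and Pdgfra had an unadjusted p under 0.05, as did 1962 of 15653 genes, and DESeq2 called 1 of the 10, Lmo4. Lmo4 was at 36.0, 44.9 and 37.3 CPM in pMN, 28.5, 32.9 and 34.0 CPM in iNkx2.2 and 65.5 and 45.9 CPM in iSDmut, so iNkx2.2 lay below and iSDmut above every pMN library. The difference between iSDmut and iNkx2.2 was 0.81 ± 0.168 (edgeR adjusted p 0.0944; over 16 alternatives 0.53 to 1.09, adjusted p 0.00197 to 0.593). It was called with DESeq2 (0.81, adjusted p 0.00197), without a count filter (0.79, edgeR adjusted p 0.0148) and without iSDmut 2 (1.04, edgeR adjusted p 0.0219), a fit that leaves 1 iSDmut library, assumed to vary like the other groups. Pdgfra was at 28.5, 9.22 and 24.8 CPM in pMN, 28.2, 9.66 and 25.6 CPM in iNkx2.2, the same pattern by replicate number, and 4.25 and 8.10 CPM in iSDmut (iSDmut minus iNkx2.2 -1.77 ± 0.566, edgeR adjusted p 0.243). The transgene transcript itself was lower in iSDmut, at 248 and 245 CPM of Nkx2-2 against 378, 343 and 343 CPM (log2 -0.53, edgeR adjusted p 0.37), a difference whose part was not tested. For Hk2 the difference was -0.18 (95% interval -0.62 to 0.26), and for Cxcl12 0.33 (-0.40 to 1.05).

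**Figure D5:**
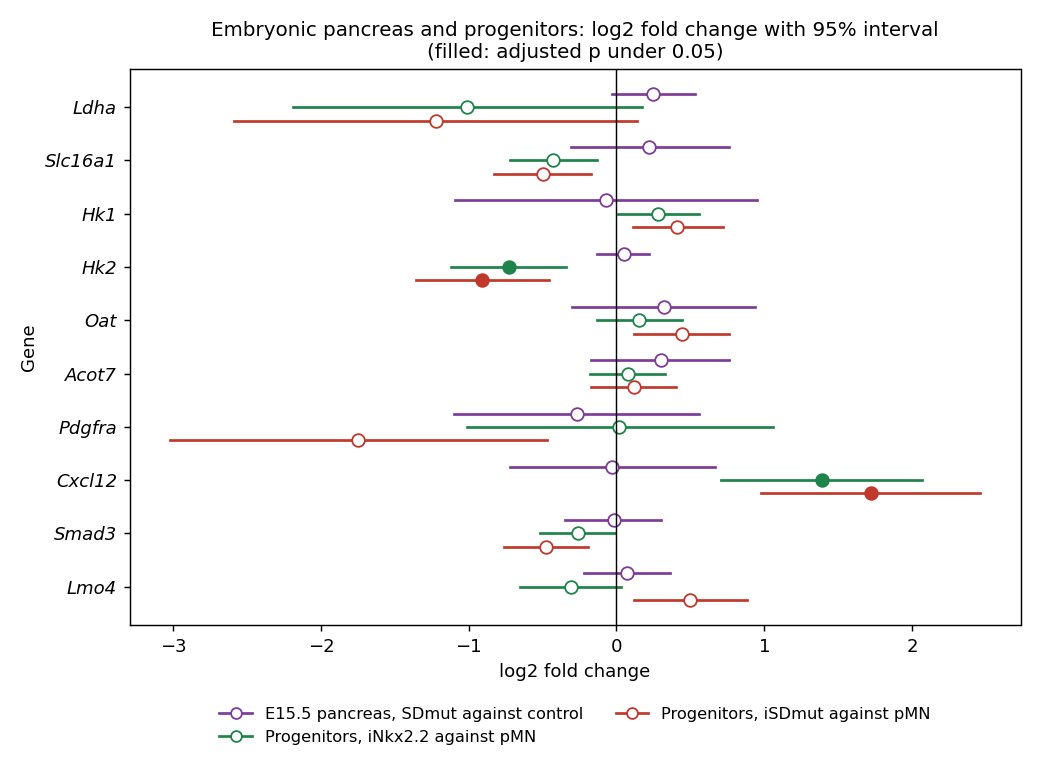
Log2 fold change of each gene with its 95% interval in embryonic pancreas (SDmut against control) and in progenitors (iNkx2.2 and iSDmut against pMN), with filled points where the edgeR adjusted p was under 0.05. Cxcl12 (1.39 and 1.72) and Hk2 (-0.73 and -0.91) are filled in progenitors, from the fit without pairing, and no point is filled in embryonic pancreas.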

How the data were processed

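The authors deposited raw read counts per gene for 24 RNA libraries, FPKM for islets and progenitors, a size-factor-normalised signal for embryonic pancreas (not analysed), and tables of log2 fold changes with p-values and calls (given as a score of -1, 0 or 1), per the deposited description. The submitters' processing notes name STAR, Cufflinks, DESeq2, edgeR 3.20.9, limma 3.34.9, bedtools 2.17.0 and build mm10 (GRCm38). For ChIP-seq the authors deposited counts in 500 bp at GEM events and log2 CPM of final sites; no enrichment over input is given. The molecule label of the 4-week samples reads genomic DNA, but their columns are gene counts.

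Tests on counts used edgeR 4.0.16 under R 4.3.3 (TMM, filterByExpr, robust quasi-likelihood) over all genes of a table, with Benjamini-Hochberg adjustment at 0.05. Embryonic and islet comparisons used their own libraries, the difference of islet effects all 9 islet libraries, and progenitors 1 model of 3 groups. Each standard error is |log2 fold change| over the root of the F statistic. The fit was tested on simulated counts with 200 changed genes per comparison. False calls made up from 5.48% (iSDmut against pMN) to 14.1% (8-week islets) of calls at the 0.05 threshold, and 13.5% in 4-week islets. Such a share depends on how many genes change, and edgeR called 1224 genes in the real 8-week data. These shares come from a single run per comparison and do not carry over to the calls reported here. Of genes changed by 1 on the log2 scale, 60.4% were recovered in 8-week islets. In embryonic pancreas 28.7% were recovered, and 21.7% for the difference of islet effects. Alternatives were RLE factors, total library size, other filters, DESeq2 1.42.0, blocks, and leaving out single libraries. Events were assigned to GENCODE starts, and sequence was read with samtools 1.23.1. Deviations of pMN and iNkx2.2 libraries of the same number, taken from the titles, correlated at 0.605, 0.612 and 0.647, so these numbers pair the libraries (replicate 3 of each group shared lane 4). No other numbers were taken as pairs. Those of islet and iSDmut libraries were used as a block in alternatives only. Titles of embryonic samples carry the numbers 8640 and 8627 in both groups and 8351 in mutant 4. The main embryonic fit left these numbers out, and an alternative used them as a block.

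Members, lists and the gene-naming rule (the 10 genes, Nkx2-2, list genes called in an islet comparison, and the 2 genes most like each member called at 8 weeks) were chosen with earlier results of these data known. Replicates give the only error estimate; the range of depth is given in the text. One gene of the ornithine and proline list is not reported here, and no count is given for that list.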

Additional observations from a re-analysis of the deposited data

Results flagged for a closer look

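Lmo4 in mutant embryonic pancreas was picked out because mutant 1, at 80.3 CPM, lay far from mutants 2 to 4 (58.9, 59.0 and 60.1 CPM): the gap was 0.944 of the whole range, above Dixon's critical value of 0.829 for 4 samples. Of the 10 genes, 1 passed this limit, and chance passes it in about 1 in 20 groups. Mutant 1 was the highest mutant for 6 of the 10 genes.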

How the results depend on the processing

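The Ldha call in 8-week islets, the count of 0 in embryonic pancreas and the share of Ldha among the 10 genes per length (with RPKM from counts) held under every alternative run. The count of 6 genes with an Nkx2.2 event nearby was 6 within 50 kb, and 5 by nearest start and in the final set. In 4-week islets 1 gene was called in place of 0 with DESeq2 and in the fit of all 9 libraries, and 0 to 1 when a library was left out. The difference of islet effects called 0 to 1 when a library was left out. For iNkx2.2 against pMN, where 2 genes were called, total library size and no filter each gave 1, DESeq2 3, the replicate block 4, and leaving out a library 0 to 3. For iSDmut against pMN, also 2, total library size, no filter, the fit of the 2 groups and lane 2 each gave 1, DESeq2 4, the replicate block 5, and leaving out a library 0 to 2. iSDmut against iNkx2.2 called 1 in place of 0 with no filter and with DESeq2, and 0 to 1 when a library was left out. In each case the cause was not tested. Leaving out 1 of 2 libraries leaves a lone library, assumed to vary like the other groups. In the iSDmut block Slc16a1, Hk1, Hk2, Oat and Smad3 were called. The block changed no other count of the 10 genes. For islet and iSDmut libraries the numbers served as a block in these alternatives only, and they were not taken as known pairs. Of 986 values of single genes over all alternatives, 873 kept direction and call, and 0 called values reversed. Calls over all genes moved more: 37 to 2765 at 8 weeks (main 1224), 4 to 770 at 4 weeks (233), 0 to 649 for the difference (194), 412 to 4629 for iNkx2.2 (1486), 151 to 2626 for iSDmut (554), 1 to 528 for iSDmut against iNkx2.2 (44) and 0 to 25 in embryonic pancreas (1). Depth limits Hk2, Pdgfra and Slc16a1 in islets most, where a library held 5 to 103 counts of each.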
